A study of Homo sapiens with 12 samples.

Results

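Transcripts of the EGFR family receptors, of the related receptors MET and FGFR2, and of EGF-like ligands were followed in 2 gastric cancer cell lines with and without ONECUT2 overexpression. The rule named 9 genes (EGFR, ERBB2, ERBB3, MET, FGFR2, AREG, EREG, TGFA and HBEGF) by their symbol in the deposited expression table. Rows for 7 of the 9 were analysed, among 13109 rows in all. The 2 ligands AREG and EREG were not analysed here. The rule picks rows by symbol, as receptors and ligands relevant to gastric cancer, and uses no measured value, although earlier results of these data were known when the set was made.

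The receptors are membrane tyrosine kinases that signal through RAS and MAP kinases and through PI3 kinase and AKT. EGFR is activated by TGFA, HBEGF, AREG, EREG and other EGF-like ligands, which are made as membrane-bound precursors and released by ADAM proteases. ERBB2 has no known ligand of its own and pairs with the other receptors, and ERBB3 binds neuregulins and has little kinase activity. MET is the receptor for hepatocyte growth factor, and FGFR2 is a receptor for fibroblast growth factors. ERBB2, EGFR, MET and FGFR2 are amplified in subsets of gastric cancers, and ERBB2 is a drug target there.

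ONECUT2, a homeodomain transcription factor, is the factor the study raised in these cells. The 4 RNA libraries were AGS control, AGS with ONECUT2 overexpression, MKN74 control and MKN74 with ONECUT2 overexpression, so each group held 1 library. Both lines are established human gastric cancer lines. How ONECUT2 was introduced, what the control cells received, the time after introduction and whether 1 clone or a pool was used are not given in the labels. The 8 chromatin immunoprecipitation samples in the labels were not analysed here.

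CPM is the number of a gene's reads scaled to the authors' library total, and a change is a difference of the deposited log2(CPM + 1) values. That scale understates the change of low genes. Between 36097456 and 38110453 whole reads per library were recovered from the values. A ratio of CPM is given with an exact interval at 95% that covers counting error only, since reads are not independent molecules. With 1 library per group no ratio within a line has a replicate check, and in bulk libraries fewer expressing cells and less RNA per cell cannot be told apart. ONECUT2 was at 4.39 CPM in the AGS control and 18.3 CPM in AGS overexpression. It was at 5.14 CPM in the MKN74 control and 57.6 CPM in MKN74 overexpression, so both overexpression libraries were higher than their controls. Whether reads of the introduced sequence are part of these values is not given. Of the epithelial markers, 11 of 13 were analysed, with EPCAM at 457 to 673 CPM. Their summed level was 6247 CPM in the AGS control, 5809 CPM in AGS overexpression, 14134 CPM in the MKN74 control and 8918 CPM in MKN74 overexpression. The sum is mostly keratin, with KRT8 at 8729 and 5109 CPM and KRT18 at 3704 and 1956 CPM in the MKN74 control and overexpression libraries. Single markers differed between the lines in both directions. CDH1 was at 7.63 and 8.74 CPM in AGS and at 211 and 284 CPM in MKN74, and MUC1 was at 147 and 184 CPM in AGS and at 3.56 and 6.06 CPM in MKN74. The part of these marker differences in the results below was not tested. Of 11 fibroblast and endothelial markers 1 was analysed, COL1A1 at 6.77 to 18.3 CPM. Of 8 immune markers 2 were analysed, CD68 at 6.14 to 11.2 CPM and LYZ, which gastric gland cells also make. LYZ was at 7661 and 7066 CPM in the AGS control and overexpression libraries, at 0 reads in the MKN74 control, where 0 allows 0.0718 CPM, and at 6.89 CPM in MKN74 overexpression.

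Promoter sequence is shown for EGFR, FGFR2 and HBEGF, since each was at least 2-fold higher with overexpression in 1 of the lines. The windows are from RefSeq on GRCh38.p14 and run from 250 bases before an annotated start to 50 after it, 5′ to 3′ on the gene's strand as the table gives it. For EGFR both windows are shown, for FGFR2 the first listed and those that hold a searched motif, and for HBEGF its 1 window. Capitals mark matches to the searched motifs.
EGFR window 1, chr7:55018767-55019066, plus strand: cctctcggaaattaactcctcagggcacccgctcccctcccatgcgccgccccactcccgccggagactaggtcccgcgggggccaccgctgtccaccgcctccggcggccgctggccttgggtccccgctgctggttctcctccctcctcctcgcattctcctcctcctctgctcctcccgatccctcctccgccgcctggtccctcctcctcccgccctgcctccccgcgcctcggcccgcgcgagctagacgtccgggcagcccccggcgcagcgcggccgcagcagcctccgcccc
EGFR window 2, chr7:55109589-55109888, plus strand: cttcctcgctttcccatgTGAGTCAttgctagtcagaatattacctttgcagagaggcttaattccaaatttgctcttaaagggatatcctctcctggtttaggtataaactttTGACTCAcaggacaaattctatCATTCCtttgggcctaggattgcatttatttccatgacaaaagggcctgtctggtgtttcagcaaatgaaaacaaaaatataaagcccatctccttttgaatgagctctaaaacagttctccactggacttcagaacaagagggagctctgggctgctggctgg
FGFR2 window 1, chr10:121598395-121598694, minus strand: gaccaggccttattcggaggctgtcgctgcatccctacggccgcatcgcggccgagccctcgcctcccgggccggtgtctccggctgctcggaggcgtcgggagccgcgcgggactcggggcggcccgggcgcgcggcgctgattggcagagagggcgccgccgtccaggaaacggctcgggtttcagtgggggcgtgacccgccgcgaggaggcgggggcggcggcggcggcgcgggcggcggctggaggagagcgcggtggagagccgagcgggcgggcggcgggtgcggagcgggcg
FGFR2 window 3, chr10:121596596-121596895, minus strand: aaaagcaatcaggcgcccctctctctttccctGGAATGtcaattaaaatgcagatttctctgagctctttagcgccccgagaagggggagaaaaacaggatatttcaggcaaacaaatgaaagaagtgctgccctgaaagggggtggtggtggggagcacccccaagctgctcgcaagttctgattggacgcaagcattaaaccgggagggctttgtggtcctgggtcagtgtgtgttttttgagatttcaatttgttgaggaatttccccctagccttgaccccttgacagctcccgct
FGFR2 window 5, chr10:121531265-121531564, minus strand: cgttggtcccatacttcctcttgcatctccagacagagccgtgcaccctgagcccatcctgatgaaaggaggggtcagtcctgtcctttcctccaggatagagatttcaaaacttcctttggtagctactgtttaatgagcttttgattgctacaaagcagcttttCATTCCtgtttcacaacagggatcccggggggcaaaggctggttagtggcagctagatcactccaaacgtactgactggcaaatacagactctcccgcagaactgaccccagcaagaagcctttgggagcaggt
HBEGF window 1, chr5:140346554-140346853, minus strand: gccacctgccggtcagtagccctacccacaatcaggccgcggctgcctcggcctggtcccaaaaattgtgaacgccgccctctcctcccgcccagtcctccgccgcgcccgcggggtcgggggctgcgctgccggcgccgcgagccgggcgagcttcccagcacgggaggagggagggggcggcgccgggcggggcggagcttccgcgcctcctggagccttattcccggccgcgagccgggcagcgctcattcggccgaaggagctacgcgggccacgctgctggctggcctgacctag

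The motifs searched on both strands were ATCAAT and ATCGAT, core sequences bound by ONECUT factors, TGACTCA, bound by AP-1, and GGAATG, bound by TEAD factors. TGACTCA read on the other strand is TGAGTCA, and ATCGAT reads the same on both strands. No motif overlapped another in these windows. Neither ONECUT core was found in any of 12 windows of 6 members (ERBB3 had no window). They occur in 6.26% and 0.763% of 35116 RefSeq windows of the same length, so a count of 0 of 12 is near these shares. EGFR window 2, at an annotated start inside the gene, held AP-1 letters at -232 and -136 from the start and TEAD letters at -114. AP-1 letters occur in 4.95% of all windows and TEAD letters in 14.0%. FGFR2 windows 3 and 5 held TEAD letters at -218 and -84. HBEGF window 1, EGFR window 1 and FGFR2 window 1 held 0 matches. These are matches of letters, and the expression table does not show which start a transcript used.

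**Figure D1:**
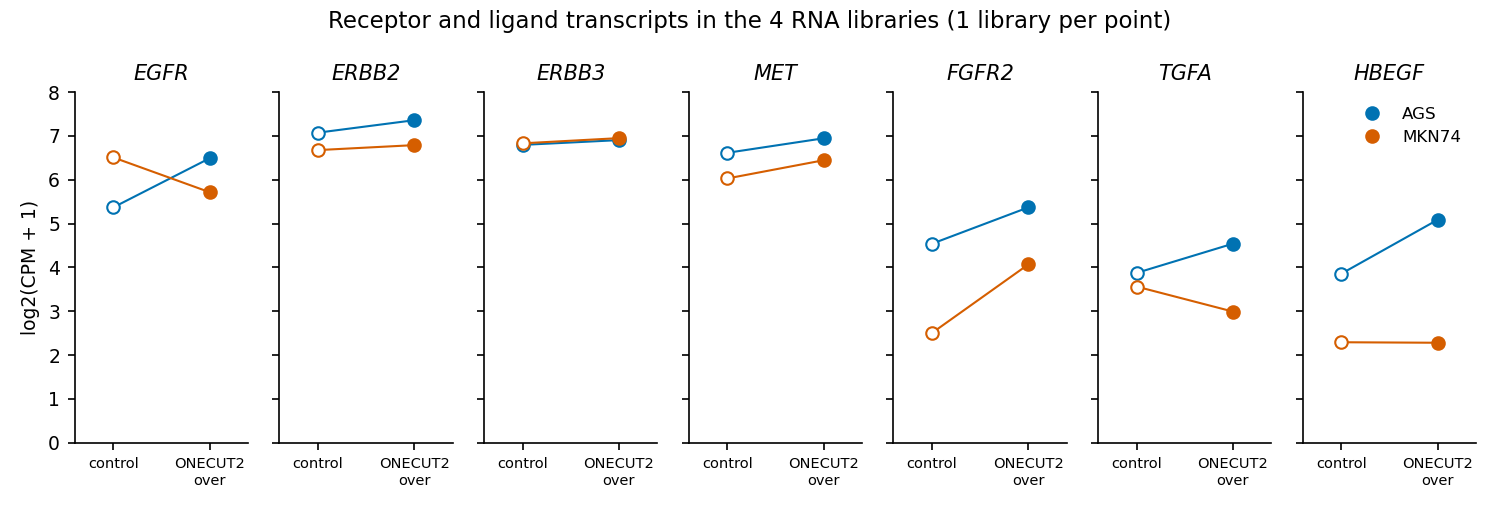
Deposited log2(CPM + 1) of each receptor and ligand (1 panel per gene) in the control (open points) and ONECUT2 overexpression (filled points) libraries of AGS (blue) and MKN74 (orange), 1 library per point. The lines cross for EGFR, run together near 6.8 for ERBB3, and lie apart in both arms for FGFR2 and HBEGF.

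EGFR was higher with overexpression in AGS and lower in MKN74. It was at 40.3 CPM in the AGS control and 88.8 CPM in AGS overexpression, on 1652 and 3839 reads. In MKN74 it was at 90.0 CPM in the control and 51.5 CPM in overexpression, on 3763 and 2363 reads. The AGS overexpression library therefore stood near the MKN74 control, and the order of the lines was turned between the arms. The ratio of overexpression to control was 2.20 (interval 2.08 to 2.34) in AGS, a change of 1.12. In MKN74 it was 0.572 (0.544 to 0.603), a change of -0.79. Reads of EGFR-AS1, an antisense transcript within EGFR, cannot be told apart from EGFR reads, since the strand setting of the counting is not given.

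ERBB2 and ERBB3 differed little with overexpression. ERBB2 was at 134 CPM in the AGS control and 163 CPM in AGS overexpression, and at 101 and 110 CPM in the MKN74 libraries in the same order. Its ratio was 1.22 (1.18 to 1.26) in AGS and 1.08 (1.04 to 1.13) in MKN74. ERBB3 was at 110 and 119 CPM in the AGS libraries and at 113 and 122 CPM in the MKN74 libraries. All 4 ERBB3 values lay within 0.15 on the log2 scale, the smallest span of the 7 genes, with ratios of 1.08 (1.04 to 1.12) in AGS and 1.09 (1.05 to 1.13) in MKN74. The counting intervals of these ratios exclude 1, and the spread between replicate libraries is unknown.

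MET was higher with overexpression in both lines by less than 2-fold. Its level went from 96.9 to 122 CPM in AGS, a ratio of 1.26 (1.21 to 1.31). The MKN74 level went from 64.2 to 86.0 CPM, a ratio of 1.34 (1.27 to 1.41). The AGS libraries were the higher ones in both arms.

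FGFR2 was higher in both overexpression libraries. It was at 22.2 CPM in the AGS control and 40.3 CPM in AGS overexpression, a ratio of 1.81 (1.67 to 1.96) and a change of 0.83. The MKN74 control had 4.67 CPM on 195 reads and MKN74 overexpression 15.7 CPM on 722 reads, a ratio of 3.38 (2.88 to 3.97) and a change of 1.56. The overexpressing MKN74 cells still had less FGFR2 than the AGS control. The table gives 1 row for FGFR2, so its epithelial and mesenchymal splice forms cannot be told apart.

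Both ligands were higher with overexpression in AGS and neither in MKN74. HBEGF, which binds EGFR and ERBB4 and also serves as the diphtheria toxin receptor, was at 13.5 CPM in the AGS control and 32.9 CPM in AGS overexpression, a ratio of 2.45 (2.22 to 2.70) and a change of 1.23. In MKN74 HBEGF was at 3.90 CPM on 163 reads and 3.86 CPM on 177 reads, a ratio of 0.990 (0.796 to 1.23), so a difference was not detectable there at this depth. TGFA, a ligand of EGFR, was at 13.7 and 22.3 CPM in the AGS libraries, a ratio of 1.63 (1.47 to 1.81) and a change of 0.67. In MKN74 TGFA went from 10.8 CPM on 452 reads to 6.96 CPM on 319 reads, a ratio of 0.643 (0.556 to 0.744) and a change of -0.57.

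**Figure D2:**
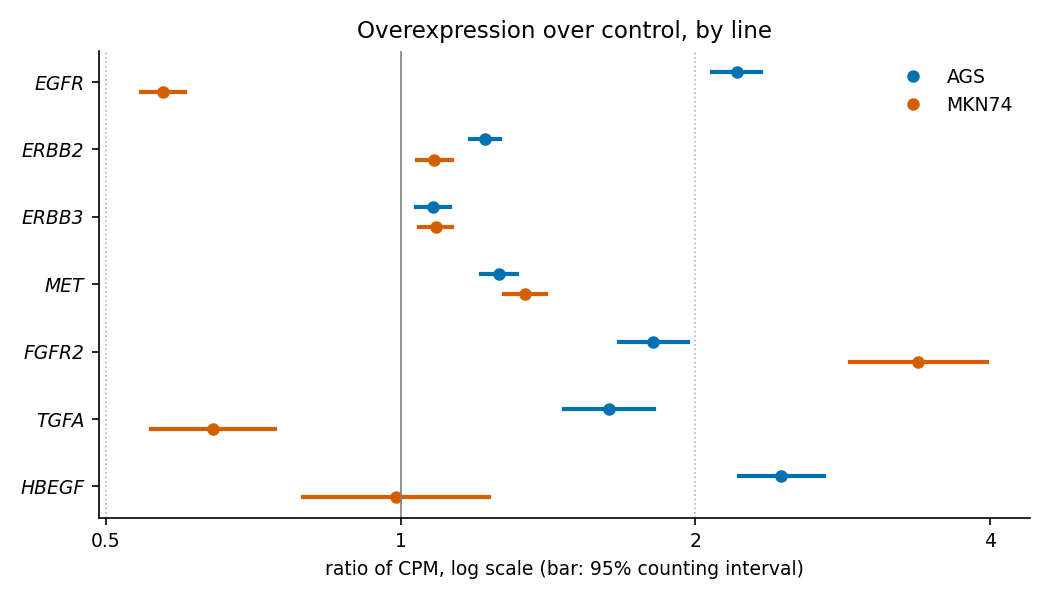
Ratio of CPM, ONECUT2 overexpression over control, on a log scale for each gene in AGS (blue) and MKN74 (orange); bars are 95% counting intervals and dotted lines mark 2-fold. EGFR and TGFA lie on opposite sides of 1 in the 2 lines, and FGFR2 in MKN74 has the highest ratio, 3.38.

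In each comparison all 7 genes averaged 1 CPM or more and entered the counts. In AGS 2 of 7, EGFR and HBEGF, were at least 2-fold higher, where 4.19% of 11675 genes were. None was 2-fold lower, where 0.728% of genes were. The median change of the 7 was 0.67, beside -0.0034 over all genes, and all 7 were above 0. In MKN74 1 of 7, FGFR2, was at least 2-fold higher, where 3.26% of 11914 genes were. None was 2-fold lower there, where 1.35% of genes were. The median of the 7 was 0.11, beside -0.020 over all genes, and 4 were above 0.

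**Figure D3:**
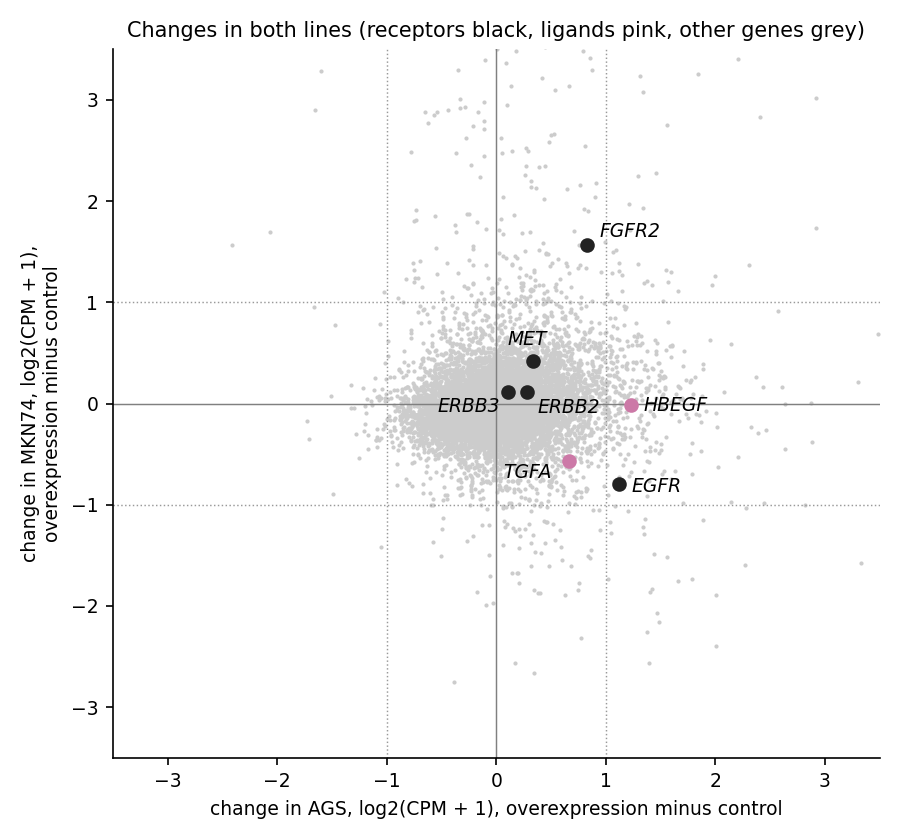
Change of log2(CPM + 1) with overexpression in AGS (x axis) and MKN74 (y axis) for 10766 genes that average 1 CPM or more in both lines (grey; 33 lie outside the axes), with the receptors in black and the ligands in pink. EGFR and TGFA are at the lower right, FGFR2 at the upper right, and dotted lines mark 2-fold.

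Whether overexpression had an effect common to both lines was tested with limma, taking the lines as the only replicates, with 1 residual degree of freedom. limma called no gene at an adjusted p of 0.05 (0% of 12340 genes). Without adjustment 566 (4.59%) passed 0.05, about the share that this cut passes with no effect. The voom alternative also called 0, and 902 (7.31%) passed without adjustment. FGFR2 had the largest common change of the 7, 1.20 (SE 0.25; limma adjusted p = 0.80), and was higher in 2 of 2 lines. MET had a common change of 0.37 (SE 0.16; limma adjusted p = 0.80), also higher in both. EGFR had 0.16 (SE 0.48; limma adjusted p = 0.940) and TGFA 0.048 (SE 0.35; limma adjusted p = 0.976), where the lines had opposite signs. HBEGF had 0.61 (SE 0.35; limma adjusted p = 0.80), ERBB2 0.20 (SE 0.16; limma adjusted p = 0.802) and ERBB3 0.11 (SE 0.15; limma adjusted p = 0.865). The difference between the lines in their response was not tested, since 4 libraries leave no degree of freedom for it.

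Some of these transcripts differed between the lines, as did many of all genes. In the control libraries 1 of 7 genes was at least 2-fold higher in MKN74 than in AGS, EGFR, where 14.5% of 12161 genes were. 2 of 7 were at least 2-fold lower, FGFR2 and HBEGF, where 16.4% of genes were. These counts are near the shares over all genes. The ratio of MKN74 to AGS was 2.24 (2.11 to 2.37) for EGFR, 0.210 (0.179 to 0.245) for FGFR2 and 0.290 (0.242 to 0.346) for HBEGF. In the overexpression libraries 0 of 7 were 2-fold higher in MKN74, where 15.1% of 12416 genes were. There 3 of 7 were 2-fold lower, FGFR2, TGFA and HBEGF, where 18.0% of genes were. The EGFR ratio was 0.581 (0.551 to 0.611) in that arm, the TGFA ratio 0.312 (0.274 to 0.355) and the HBEGF ratio 0.117 (0.0997 to 0.137). FGFR2 lay nearer between the overexpression libraries, at 0.391 (0.358 to 0.427).

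**Figure D4:**
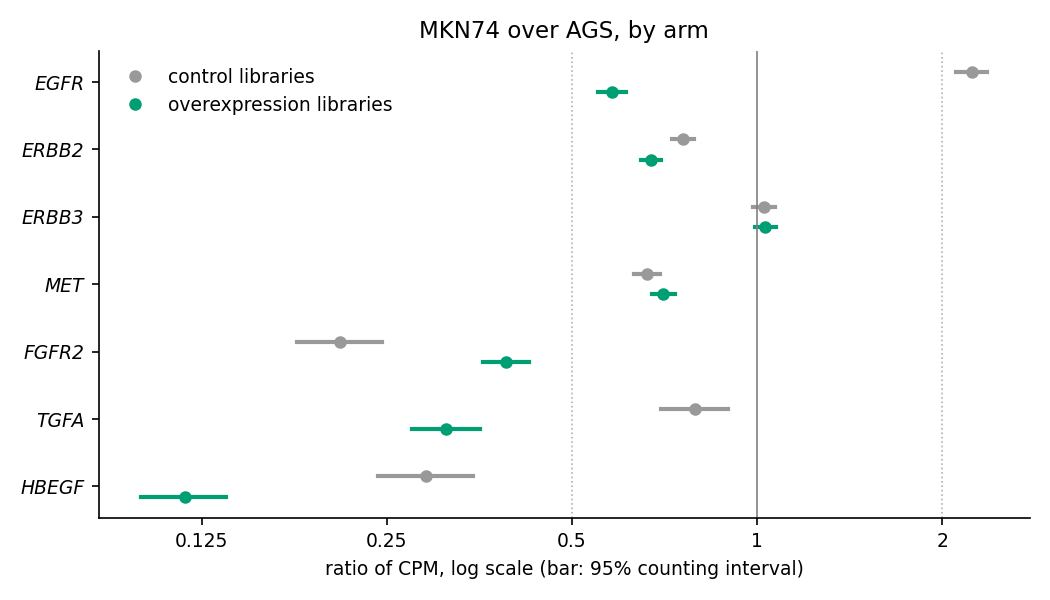
Ratio of CPM, MKN74 over AGS, on a log scale for each gene between the control libraries (grey) and between the overexpression libraries (green); bars are 95% counting intervals and dotted lines mark 2-fold. EGFR is above 1 between controls and below 1 between overexpression libraries, and ERBB3 lies near 1 in both.

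In limma the arms of each line stood in as its replicates, although they differ in treatment. The residual is then the difference between the lines' responses, so SE and adjusted p do not measure spread between replicate libraries. HBEGF was lower in MKN74 by a log2 difference of -2.18 (SE 0.35; limma adjusted p = 0.0120). FGFR2 differed by -1.67 (SE 0.25; limma adjusted p = 0.00993), and with overexpression left out of the model the adjusted p was 0.0747. MET differed by -0.54 (SE 0.16; limma adjusted p = 0.0488), and its adjusted p ranged from 0.0455 to 0.103 over the alternatives, which put it above 0.05 in 7 of 11. These 3 of 7 genes were called lower in MKN74, where 22.3% of 12340 genes were, and 0 were called higher, where 20.9% were. In either direction 5330 of the 12340 were called, so 3 of 7 is near the share over all genes. ERBB2 (-0.48, SE 0.16; limma adjusted p = 0.0694) and TGFA (-0.93, SE 0.35; limma adjusted p = 0.0932) were lower in MKN74 in both arms and were not called. EGFR differed by 0.18 (SE 0.48; limma adjusted p = 0.776) and ERBB3 by 0.040 (SE 0.15; limma adjusted p = 0.849).

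For ERBB2, MET, FGFR2, TGFA and HBEGF both AGS libraries were above both MKN74 libraries, and for EGFR and ERBB3 the lines overlapped. For HBEGF the lowest pair, both MKN74 libraries, did not differ beyond counting error. For ERBB3 the controls of the lines did not differ beyond counting error (ratio 1.03, interval 0.984 to 1.07), and neither did the overexpression libraries (1.03, 0.993 to 1.07).

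Among other ligands of the family, BTC had reads in AGS alone and EGF had most of its reads in MKN74. Of 7 other ligand genes 4 were analysed, and of these BTC, which binds EGFR and ERBB4, was named by the rule. BTC was at 5.95 CPM in the AGS control and 10.5 CPM in AGS overexpression, a ratio of 1.76 (1.5 to 2.06), and at 0 reads in both MKN74 libraries. Against a floor of 3 reads per library it was at least 82.9-fold higher in AGS than in MKN74 among controls and at least 160-fold among overexpression libraries. That floor leaves out counting error in the AGS reads, and the exact intervals of the ratio of MKN74 to AGS end at 0.0149 and 0.00773. EGF, chosen after its values were seen, was at 5.31 CPM in the MKN74 control on 222 reads and at 1.42 CPM in MKN74 overexpression on 65 reads, a ratio of 0.267 (0.199 to 0.353). It rested on 3 reads in each AGS library, and its ratio between the controls was 72.6 (24.5 to 355). NRG1, a ligand of ERBB3 and ERBB4 that was also chosen after its values were seen, had 0 reads in the MKN74 control and 58 reads, 1.27 CPM, in MKN74 overexpression, at least 17.6-fold higher against the same floor, with an exact interval of the ratio that begins at 13.9. It had 2 reads in each AGS library. NRG4, a ligand of ERBB4, was at 2.46 and 1.06 CPM in AGS and at 0.478 and 0.458 CPM in MKN74. Of 3 of these ligand genes tested in limma, EGF was called higher in MKN74 (log2 difference 1.87, SE 0.42; limma adjusted p = 0.0270) and BTC lower (-3.16, SE 0.30; limma adjusted p = 0.00332). Among all 12340 genes tested, 20.9% were called higher in MKN74 and 22.3% lower. ERBB4, the remaining receptor of the family, was not analysed here.

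Among partners and relatives of MET and FGFR2, 16 of 25 genes were analysed. In AGS 1 of 14 with enough reads was at least 2-fold higher and 0 lower, where 4.19% and 0.728% of all genes were, with a median change of 0.41 beside -0.0034 over all genes. HPN, a membrane protease that activates hepatocyte growth factor, was at 7.41 CPM in the control there and 22.4 CPM in overexpression, a change of 1.48. In MKN74 2 of 15 were at least 2-fold higher and 0 lower, where 3.26% and 1.35% of all genes were, with a median of 0.14 beside -0.020. FGFR4, another FGF receptor, was at 4.62 and 12.3 CPM in MKN74, a change of 1.24, and at 58.9 and 34.7 CPM in AGS, where the change was -0.75. CD44, a membrane glycoprotein that can act as a MET co-receptor and the other one of the 2, was at 0.407 and 2.03 CPM in MKN74 and at 57.3 and 56.2 CPM in AGS. GPC1, a heparan sulfate proteoglycan, had changes of 0.77 in AGS and -0.88 in MKN74, and FGFR3 changed by 0.85 in MKN74.

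Of 13 genes that release the ligands 10 were analysed, and 0 were past 2-fold in either line. Among all genes 4.19% were 2-fold higher and 0.728% lower in AGS, and 3.26% and 1.35% in MKN74. A count of 0 of 10 is near these shares. The medians of the 10 were 0.18 in AGS and -0.076 in MKN74, beside -0.0034 and -0.020 over all genes. RHBDF1 and RHBDF2, which bring ADAM17 to the cell surface, had changes of 0.68 and 0.70 in AGS. ADAM10, a protease that sheds EGF and BTC in mouse cells, was at 342 and 201 CPM in MKN74, a change of -0.76, and had a change of 0.29 in AGS. ADAM9 had a change of -0.66 in MKN74 and ADAM15 of -0.34.

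Of 29 genes that inhibit the receptors or take them to degradation, 3 were at least 2-fold higher in AGS and 0 lower, where 4.19% and 0.728% of all genes were. Their median was 0.25, beside -0.0034 over all genes. ERRFI1, an inhibitor of the EGFR kinase, was at 294 CPM in the AGS control and 651 CPM in AGS overexpression, which is a change of 1.15. GRB10, an adaptor that binds receptor kinases, was at 31.7 and 69.9 CPM, a change of 1.12. DEPTOR, an inhibitor of mTOR and below the level set for naming, was at 0.707 and 5.99 CPM in the same libraries. In MKN74 1 of 27 was at least 2-fold higher, where 3.26% of all genes were, and 0 lower, where 1.35% were. The median there was -0.14, beside -0.020 over all genes, and ERRFI1 had a change of -0.35. The one was LRSAM1, a ubiquitin ligase, which was at 10.02 and 23.9 CPM, a change of 1.17. CBLC, a ubiquitin ligase of the CBL family, had changes of 0.95 in AGS and 0.50 in MKN74, and the tetraspanin gene CD82 had -0.76 in MKN74.

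Adaptors and the RAS, RAF and MAP kinase genes stayed mostly within 2-fold. Of 28 genes, 1 was at least 2-fold higher in each line and 0 lower. These counts are near the shares over all genes, 4.19% higher and 0.728% lower in AGS and 3.26% and 1.35% in MKN74. The medians of the 28 were 0.042 in AGS and -0.060 in MKN74, beside -0.0034 and -0.020 over all genes. GRB7 is an adaptor that binds ERBB2, and its gene lies near that of ERBB2. GRB7 was at 19.1 and 47.1 CPM in AGS, a change of 1.26, and at 8.28 and 13.7 CPM in MKN74, a change of 0.67. KSR1, a scaffold for RAF, MEK and ERK, was at 2.18 and 12.98 CPM in MKN74, a change of 2.14. Other changes named by the rule were those of MAPK3 (0.65) and GAB2 (0.59) in AGS and of GAB1 (0.57) in MKN74. Of the PI3 kinase, AKT and STAT genes 0 of 14 in AGS and 0 of 15 in MKN74 passed 2-fold, also near the shares over all genes. Their medians were -0.055 and 0.060 beside the same all-gene medians. PIK3R3, a regulatory subunit of PI3 kinase, had changes of -0.62 in AGS and 0.81 in MKN74. PIK3R2 had changes of 0.45 and 0.33 in the same order, PIK3CA -0.38 in AGS and STAT5B -0.37 in MKN74.

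**Figure D5:**
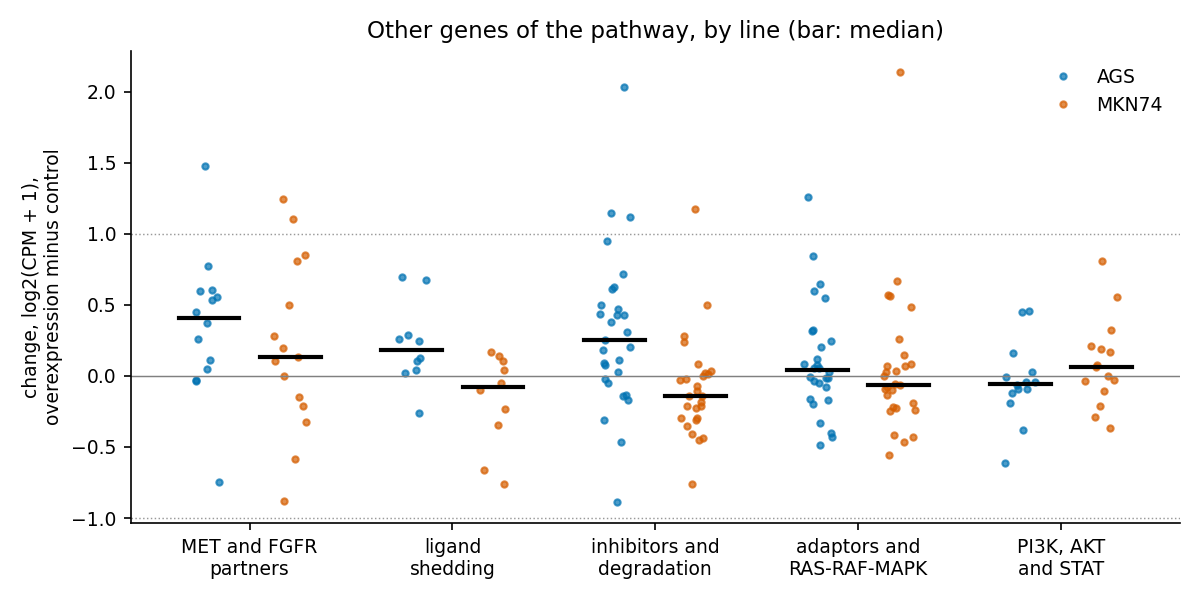
Change of log2(CPM + 1) with overexpression for the tested genes of 5 pathway lists in AGS (blue) and MKN74 (orange), 1 point per gene, with black bars at the medians and dotted lines at 2-fold. The medians of the first 3 lists are 0.41, 0.18 and 0.25 in AGS and 0.14, -0.076 and -0.14 in MKN74.

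Over all these lists, AGS had 5 of 97 genes at least 2-fold higher with overexpression and 0 lower, against 4.19% and 0.728% of all genes. MKN74 had 4 of 96 higher and 1 lower, against 3.26% and 1.35%. These counts are near the shares over all genes. In limma 0 of 100 were called for an overexpression effect, as were 0% of all genes. Of the 100, 16 were called higher in MKN74 and 35 lower, where 20.9% and 22.3% of all genes were. LRIG1, which promotes loss of the receptors, was at 60.2 and 93.4 CPM in AGS and at 0.311 and 0.327 CPM in MKN74 (log2 difference -5.85, SE 0.25; limma adjusted p = 0.000649). CRKL, an adaptor, was at 105 and 111 CPM in AGS and at 996 and 678 CPM in MKN74 (2.92, SE 0.22; limma adjusted p = 0.00194). LRIG1 and CRKL were chosen after their values were seen.

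Genes with the most similar pattern were sought for the 4 members whose values span at least 1 on the log2 scale, by the distance between centred log2 values over the 4 libraries among 10342 genes that average 5 CPM or more. EGFR was nearest to LTBP2 (distance 0.20), NAB1 (0.29) and FTH1 (0.30), and 33 genes lay within 0.5. LTBP2 went from 4.14 to 12.5 CPM in AGS and from 11.8 to 6.52 CPM in MKN74. FGFR2 was nearest to AJUBA (0.33), GPT2 (0.38) and CASP10 (0.40), and 9 genes lay within 0.5. TGFA was nearest to FGFRL1 (0.10), KIFAP3 (0.15) and IGSF9B (0.17), and 277 genes lay within 0.5. HBEGF was nearest to MOCOS (0.23), PODXL (0.24) and LAMA5 (0.24), and 39 genes lay within 0.5.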

How the data were processed

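Per the labels' protocols, TruSeq RNA kits gave the libraries. The submitters' processing notes list STAR 2.5.1, edgeR 3.12.1, Bowtie2 2.1.0, CASAVA 1.7, HOMER 4.9.1 and the build hg19 without saying what each did. Counter, annotation and strand setting: not given in the sources used here. The authors deposited 1 table of log2 values, which by the values are log2(CPM + 1). All values (100%) came back within 0.1 of a whole read, at most 3.1e-08 away, and the reads made up 83.1% to 88.1% of the implied library sizes. The 13091 rows used leave out 18 that are named by a date and hold 0.218% to 0.239% of reads.

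Genes averaging 1 CPM or more in the compared libraries were counted at 2-fold. Intervals are exact conditional binomial. limma models with terms for line and overexpression used a mean trend and Benjamini-Hochberg adjustment over all genes tested. The fit was tested on simulated data in which both lines had the same response. That does not show how it performs for unequal responses, such as those of EGFR and TGFA. The cell line pairs the libraries. Members, 7 pathway lists and 3 marker lists were chosen with earlier results of these data known. Of 119 list genes 102 were found. Named were up to 3 genes per list and line with the largest change averaging 5 CPM or more, and the 3 nearest patterns per member. Protein sequences were not used here. Alternatives were other pseudocounts, filters, fold sizes, scalings, moderation, model terms and voom on recovered reads. Software was limma 3.58.1 in R 4.3.3, and scipy 1.17.1, pandas 2.3.3, numpy 2.4.6 and matplotlib 3.10.9 in Python 3.11.15.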

Additional observations from a re-analysis of the deposited data

Results flagged for a closer look

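EGFR was higher with overexpression in AGS and lower in MKN74, so its changes have opposite signs, and the MKN74 change minus the AGS change was -1.91 on the log2 scale. TGFA did the same, with a difference of -1.24. Both counting intervals of each gene exclude a ratio of 1, as does that of ERBB2 in MKN74 at a ratio of 1.08. How many of all genes have opposite signs with both intervals away from 1 was not counted. Of 10766 genes tested in both lines, 53 had changes of at least 1 in AGS and at most -0.5 in MKN74. EGFR is among them, and the cut of -0.5 is looser than 2-fold. At 2-fold in both lines, higher in AGS and lower in MKN74, there were 25, and EGFR is not among those. TGFA did not reach a change of 1 in AGS, and 277 of 10342 genes lay within 0.5 of its pattern. Each line had 1 library per arm, and the difference between the lines was not tested. EGFR kept these signs under every pseudocount and scaling tried, with changes of 1.09 to 1.18 in AGS and -0.80 to -0.74 in MKN74, and so did TGFA, with 0.63 to 0.73 and -0.66 to -0.52.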

How the results depend on the processing

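At 1.5-fold in place of 2-fold, 4 of the 7 genes passed in AGS (EGFR, FGFR2, TGFA and HBEGF, all higher). In MKN74 2 of the 7 passed (FGFR2 higher, EGFR lower). Among all genes tested, 1982 of 11675 passed in AGS, 1318 of 11914 in MKN74 and 6251 of 12161 between the controls. At 4-fold 0 of the 7 passed in AGS, 0 in MKN74 and 1 between the controls, FGFR2. Among the same genes tested, 71, 144 and 1564 passed in that order. Requiring a mean of 5 CPM left 347 of 9954 genes in MKN74 in place of 549 of 11914, and HBEGF was then not counted there. The other pseudocounts, filters and scalings kept the counts of the 7 genes at 2, 1 and 3. The common change of TGFA was -0.010 after quantile normalization, where the main value was 0.048, and the cause was not tested. The change of HBEGF in MKN74 was 0.033 on recovered totals, where the main value was -0.012. That scaling took the median change of all genes in MKN74 from -0.020 to 0.032. Over limma's alternatives the calls of a common overexpression effect stayed at 0 and those of a line difference at 4386 to 5677, where 5330 was the main value. The MET line call was lost in 7 of 11 alternatives and the FGFR2 line call in 1. Leaving out either line leaves 1 library per arm and no test. No paired analysis by replicate number was possible because the labels give none. Among the 7 genes the fewest reads were those of HBEGF in MKN74, 163 and 177, and the EGF and NRG1 ratios rest on as few as 0 to 3 reads in a library.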

Other observations

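Genes beside the members in the genome were read from the RefSeq table of GRCh38.p14, used for gene order alone. Of the 3 nearest protein-coding genes on either side of each of the 7 members, 31 of 42 were analysed, and 3 were past 2-fold in AGS (2 higher and 1 lower) and 0 in MKN74. Of all genes 4.19% were 2-fold higher and 0.728% lower in AGS, and 3.26% and 1.35% in MKN74. Those shares are over genes averaging 1 CPM or more. The 31 include genes below that level, which could not be counted, such as PNMT, CAV1 and CAV2 in AGS. LANCL2, next to EGFR, was at 19.02 and 8.53 CPM in the AGS control and overexpression libraries, a change of -1.07, while EGFR was higher there. GRB7, near ERBB2, had a change of 1.26 in AGS, and IGIP, near HBEGF, was at 1.80 and 6.57 CPM, a change of 1.43. Between the lines, 6 of the 31 were past 2-fold in the control libraries and 10 in the overexpression libraries. PNMT, near ERBB2, differed by 1.24 and 1.23 in these arms but averaged under 1 CPM and was not counted. Among all genes 14.5% were 2-fold higher in MKN74 and 16.4% lower between controls, and 15.1% and 18.0% between overexpression libraries. Of these neighbours CAV1 and CAV2, near MET, are given here. CAV1 was at 0.439 and 0.578 CPM in the AGS libraries and at 42.8 and 50.7 CPM in the MKN74 libraries. CAV2 had 0 reads in both AGS libraries and 50.3 and 38.7 CPM in MKN74, whereas MET was lower in both MKN74 libraries.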
